A study of Mus musculus with 102 samples.

Results

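The comparison covered epidermal stem cells of aged mice collected at zeitgeber time 12 (ZT12), under calorie restriction (CR) and on control diet. Its members are the 8 arrays of mice aged 83 to 97 weeks whose labels give T12, 4 under CR and 4 on control diet, out of 49 arrays of aged mice and 53 of adult mice in the series. Every mouse, controls included, was a Per1-Venus BAC transgenic of C57B6/J background, in which a fluorescent protein reports the activity of Per1. How the stem cells were isolated is not given in the sources used here. Control mice ate without limit, and restricted mice received 30% less food than the control intake. The feeding ran for 25 weeks after 3 weeks of adaptation, during which the ration of the restricted mice was lowered by 10% per week. The series also holds adult mice of 47 to 57 weeks, with 5 CR and 4 control arrays at ZT12, and 5 other times in aged mice, with 21 CR and 20 control arrays. The study's design gives 4 mice per time and diet, whereas the groups hold 3 to 6 arrays, and the labels do not say which arrays share a mouse. The p-values therefore measure the spread between arrays, some of which may be of the same mouse.

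Zeitgeber time counts the hours from lights on, so that ZT12 is where lights go off when light and dark last equally long. The circadian clock is a loop in which Clock and Arntl (Bmal1) drive their own repressors, the Per and Cry proteins, through E-box sequences, and drive output factors such as Dbp, which bind D-boxes. Stem cells of the epidermis run this clock, and the time at which they copy their DNA is tied to the hour of the day. Calorie restriction is known to alter daily rhythms of gene expression in peripheral tissues.

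The promoters of 3 genes named in the results below are shown for reference, as RefSeq gives them in build GRCm38.p6. Each runs from 250 bases before to 50 bases after 1 start site listed for the gene. Ciart passed the test of the diet difference. Mcm3 and Mcm6 did not pass it. They are DNA replication genes picked as examples that hold the E2F element, and they do not represent their list. Capitals mark an E-box (CACGTG) in Ciart and an E2F element (TTTCCCGC or TTTGGCGC, either strand) in the Mcm genes.
Ciart, chr3:95882179-95882478, minus strand: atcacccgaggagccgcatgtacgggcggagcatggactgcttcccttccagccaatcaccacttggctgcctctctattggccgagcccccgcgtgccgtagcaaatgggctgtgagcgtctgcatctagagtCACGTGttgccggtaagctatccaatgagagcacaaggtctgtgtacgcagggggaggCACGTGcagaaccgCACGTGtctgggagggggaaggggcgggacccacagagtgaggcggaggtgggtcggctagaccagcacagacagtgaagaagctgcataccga
Mcm3, chr1:20820263-20820562, minus strand: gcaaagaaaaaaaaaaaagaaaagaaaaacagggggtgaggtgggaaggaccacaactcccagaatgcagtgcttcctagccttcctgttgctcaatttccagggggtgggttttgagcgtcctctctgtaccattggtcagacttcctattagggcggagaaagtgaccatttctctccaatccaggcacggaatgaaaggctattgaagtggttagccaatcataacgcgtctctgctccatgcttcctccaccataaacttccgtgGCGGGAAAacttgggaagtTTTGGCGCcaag
Mcm6, chr1:128359656-128359955, minus strand: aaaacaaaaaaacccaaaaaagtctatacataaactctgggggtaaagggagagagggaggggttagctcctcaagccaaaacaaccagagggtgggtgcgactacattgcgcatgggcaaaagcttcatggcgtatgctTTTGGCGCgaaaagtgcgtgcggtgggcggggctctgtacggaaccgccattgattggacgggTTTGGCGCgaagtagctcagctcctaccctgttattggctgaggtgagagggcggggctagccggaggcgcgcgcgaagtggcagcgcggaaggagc
The Ciart window held 3 E-boxes, at -116, -58 and -44 from that start site. The E-box was present in 7.15% of 32851 promoters, in 3 of the 11 genes past the threshold (Ciart, Hnrnpd and Smpdl3b) and in 4 of the 16 tested clock genes with an entry. The D-box (TTATGTAA or TTACGTAA) was present in 1.06% of promoters and in 1 of the 11, Timeless, whose window lies inside the gene and away from its outermost start in the same build. The E2F element, a motif searched after the values had been seen, was present in 1.56% of promoters and in 10 of the 32 tested DNA replication genes with an entry, and in 0 of the 11. Searches for the ROR element (AGGTCA preceded by AAAGT or AAAGTN), the PPAR element (a pair of AGGTCA with 1 base between) and the full glucocorticoid element (AGAACA and TGTTCT with 3 bases between) found 0 matches among the 11. The shorter glucocorticoid site TGTTCT was in 19.0% of promoters and in 1 of the 11, Hnrnpd. A match only describes these letters in this window. The shares over promoters count every entry, of genes tested or not, whereas the sets hold tested genes only, so they are not like for like.

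Levels are given on the log2 scale as the authors normalised them, and differences are CR minus control. The basal keratinocyte genes Krt5, Krt14 and Col17a1 were high on every array, as the label of epidermal stem cells implies. Levels over the 8 arrays were 12.28 to 12.51 for Krt5, 12.42 to 12.55 for Krt14 and 12.35 to 12.61 for Col17a1. Krt1 (11.51 to 11.99) and Krt10 (11.46 to 11.63), of the suprabasal and cornified keratinocyte list, were high on every array too. Of 16 matched bulge genes of the hair follicle, 3 (Lgr5, Cd34 and Lhx2) lay below the brightness filter of 4.73 on all 8. So did 2 of 19 matched immune genes (Ptprc and Lyz2) and 2 of 10 endothelial genes (Cdh5 and Plvap). The same held for 4 of 14 fibroblast genes (Col1a2, Lum, Pdgfra and Dpt) and 4 of 10 melanocyte genes (Tyrp1, Mlana, Kit and Gpr143). The filter is the 30th percentile of probe set means and is no call of detection. The other members of these lists exceeded it on at least 1 array. Among them were Sparc (9.30 to 10.47) of fibroblasts, Thy1 (6.79 to 8.46) of immune cells and Lgr6 (7.73 to 8.86) of the bulge. The Xist transcript of the inactive X exceeded the Y-linked genes on 1 of 4 CR arrays and on 2 of 4 control arrays, and the labels give no sex. The CR arrays correlated less with one another (median r per array 0.962 to 0.971) than the control arrays did (0.979 to 0.986). They correlated more with the control arrays (0.974 to 0.982) than among themselves. CR replicates 2 and 3 had narrower distributions (interquartile ranges 2.77 and 2.83, against 3.03 to 3.35 on the other 6 arrays). The 11 genes past the threshold, the clock list and the replication list are given with and without these 2 arrays.

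Under CR, 2 genes rose (0.0149% of all tested) and 9 fell (0.0672%) at ZT12 in aged mice. The falls included Dbp and Ciart of the circadian clock, Timeless of the replication fork, and Antxr2, a receptor for matrix proteins that had the smallest p. The rises were Cd59a, an inhibitor of complement, and Stard13, a GTPase-activating protein. In all, 11 of 13383 genes (0.0822%) passed a Benjamini-Hochberg adjusted p of 0.05 in limma, and 10 of these 11 differed by at least 1.5-fold. At an unadjusted p of 0.05 the count was 605 (4.52%), where 669 would be expected if no gene differed. The 393 lower genes (2.94%) outnumbered the 212 higher ones (1.58%).

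Removing 1 array changed the count, to 3 without CR replicate 1, 5 without CR replicate 3, 6 without CR replicate 4, 2 without control replicate 2 and 4 without control replicate 3. It was 9 without CR replicate 2, 9 without control replicate 1 and 8 without control replicate 4. Of the 9 genes without control replicate 1, 5 were among the 11. The count was 3 (Antxr2, Dbp and Sphk2) when the spread was estimated from the 8 arrays alone. The rest of the 11 then had an adjusted p in limma from 0.143 (Cd59a) to 0.632 (Hnrnpd), with 0.147 for Ciart and 0.483 for Smpdl3b. The SE and p given for each gene below rest on the spread over all 24 groups. The median SD of a gene was 0.249 in the aged CR group at ZT12 and 0.188 in the control group. Without CR replicates 2 and 3 together, a choice made after seeing the data, it was 2, of which 1 was among the 11. With the sex read from Xist as a covariate it was 20, which included all 11. In RNA pooled from many cells, a lower level per cell and a smaller share of cells that express a gene cannot be told apart.

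Among surface and matrix genes, Antxr2, which binds collagen and laminin at the cell surface, had levels of 7.82, 7.38, 7.62 and 7.48 under CR and 8.66, 8.68, 8.75 and 8.90 on control diet. Every control array lay above every CR array. Antxr2 fell by 1.17 (SE 0.19, adjusted p = 0.000662), a 2.25-fold lower level. It passed without each of the 8 arrays in turn, and missed the threshold without CR replicates 2 and 3 together (adjusted p = 0.0826). Cd59a, which blocks the membrane attack complex of complement, stood at 10.24, 10.02, 10.24 and 10.05 under CR and at 8.97, 9.17, 9.40 and 9.49 on control diet. The groups lay apart, with the smallest CR value above the largest control value. Cd59a rose by 0.88 (SE 0.18, adjusted p = 0.00959). Its other probe set differed by 0.87, and signal of the closely related Cd59b could be counted here. Without CR replicate 1, CR replicate 3, control replicate 1 or control replicate 2, its adjusted p was 0.0596, 0.0552, 0.0683 and 0.0550.

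Stard13 had levels of 7.85, 7.39, 7.50 and 8.14 under CR against 6.80, 6.80, 6.46 and 6.92. It rose by 0.98 (SE 0.21, adjusted p = 0.0285), with no overlap. Smpdl3b, a membrane enzyme related to acid sphingomyelinase, had levels of 5.61, 6.01, 5.72 and 6.11 against 6.32, 6.60, 6.82 and 6.30. It fell by 0.64 (SE 0.12, adjusted p = 0.00745), and its lowest control array exceeded its highest CR array. Both calls were lost on removal of some single arrays: Stard13 passed in 3 and Smpdl3b in 4 of the 8 removals, with adjusted p up to 0.222 and 0.140, both without control replicate 3. Stard13 was the 1 gene of the 11 that passed without CR replicates 2 and 3 together (1.25, SE 0.255, adjusted p = 0.0307). Cd59a (0.89) and Smpdl3b (-0.65) each had an adjusted p of 0.115 there.

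The other 4 falls outside the clock and the cell cycle were in metabolism and RNA handling. Steap4, which reduces iron and copper at membranes, had levels of 7.20, 6.91, 7.68 and 6.92 under CR and 7.64, 8.80, 8.10 and 8.49 on control diet. It was the only one of the 11 genes whose groups overlapped, since CR replicate 3 lay above control replicate 1. Steap4 fell by 1.08 (SE 0.24, adjusted p = 0.0467), and its other probe set differed by -1.39. Mthfd1l, a mitochondrial enzyme of folate metabolism that releases formate, fell by 0.56 (SE 0.13, adjusted p = 0.0467) from 6.53 to 6.88 on control diet to 5.94 to 6.45. Man1c1, a Golgi mannosidase that trims N-glycans, fell by 0.74 (SE 0.17, adjusted p = 0.0467) from 9.97 to 10.49 to 9.32 to 9.73. Hnrnpd, which binds AU-rich elements and governs mRNA decay, fell by 0.63 (SE 0.15, adjusted p = 0.0467) from 10.40 to 10.77 to 9.45 to 10.31. Its 2 dim probe sets differed by -0.21 and 0.00. These 4 genes stood closest to the threshold: Steap4 and Mthfd1l passed in 2 of the 8 removals of an array, and Man1c1 and Hnrnpd in 1. Their highest adjusted p in those removals was 0.387 (Steap4, without control replicate 2), 0.268 (Mthfd1l, without control replicate 3), 0.249 (Man1c1, without control replicate 4) and 0.362 (Hnrnpd, without CR replicate 3). Hnrnpd differed by -0.35 (adjusted p = 0.591) and Man1c1 by -0.59 (adjusted p = 0.449) without CR replicates 2 and 3 together. Steap4 (-1.2) and Mthfd1l (-0.65) had an adjusted p of 0.115 there. With the mean of its probe sets Hnrnpd differed by -0.28 (adjusted p = 0.803).

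**Figure D1:**
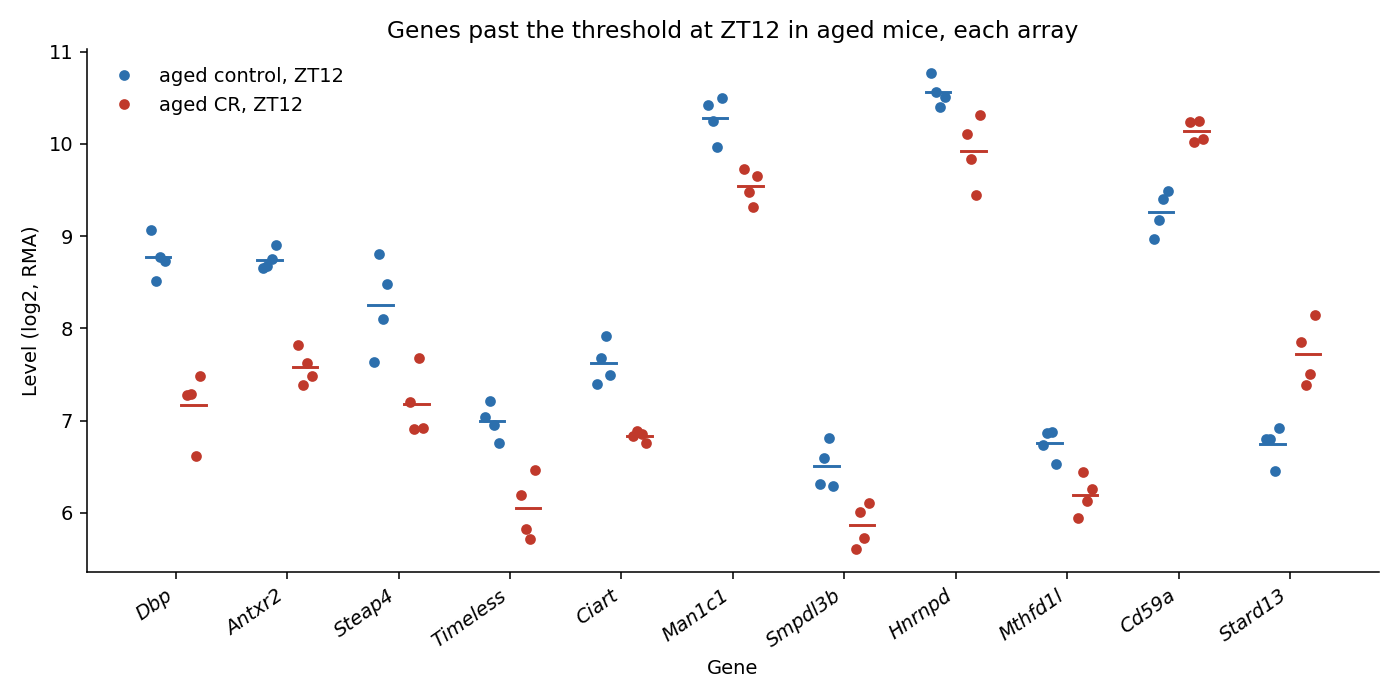
The plot gives the level (log2, y axis) of the 11 genes past the threshold (x axis) on each array, with aged control in blue, aged CR in red and group means as lines. In 10 of the 11 genes no CR array overlaps a control array, and Steap4 is the exception.

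The clock genes differed by diet mainly in the output factor Dbp and the repressor Ciart. Of 25 listed clock genes 22 were matched and 19 tested, of which 2 fell and 0 rose, beside 0.0672% and 0.0149% of all genes. Dbp, the D-box factor whose transcription follows Clock and Arntl, had levels of 7.28, 7.29, 6.62 and 7.49 under CR and 9.07, 8.51, 8.77 and 8.73 on control diet. All 4 CR arrays lay at least 1 log2 unit below the lowest control array. Dbp fell by 1.60 (SE 0.31, adjusted p = 0.00745), which is 3.04-fold, and missed the threshold without CR replicate 3 (adjusted p = 0.0736). In the GRCm38.p6 gene models Dbp overlaps Sphk2, a sphingosine kinase gene, on chromosome 7. Sphk2 differed by -1.31 (adjusted p = 0.0738), and signal from overlapping transcripts cannot be told apart here.

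Ciart (Chrono), which binds the Clock and Arntl complex and represses it, had levels of 6.83, 6.89, 6.86 and 6.76 under CR and 7.40, 7.68, 7.92 and 7.50 on control diet. The CR arrays lay close together, and all were below the lowest control array. Ciart fell by 0.79 (SE 0.16, adjusted p = 0.00959). It missed the threshold without CR replicate 1 (adjusted p = 0.0522), CR replicate 4 (0.0511), control replicate 2 (0.0503) or control replicate 3 (0.140). Without CR replicates 2 and 3 together, 0 of the 19 clock genes passed, with adjusted p of 0.204 for Dbp and 0.115 for Ciart.

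The other repressors gave no call. Per3 had levels of 8.66, 8.43, 7.92 and 8.51 under CR and 8.88, 9.20, 8.88 and 9.29 on control diet, a difference of -0.68 (SE 0.32). Its groups did not overlap, but the adjusted p was 0.998. Nr1d2 (Rev-erb beta), which represses Arntl, also lay apart, at 9.07 to 9.49 under CR and 9.50 to 9.89 on control diet (difference -0.34, SE 0.21). Per1, whose control region drives the reporter, differed by -0.20 (SE 0.24) and Per2 by 0.07 (SE 0.19). Cry1 differed by 0.51 (SE 0.36) and Cry2 by -0.12 (SE 0.19). Cry1 had levels of 7.30, 6.18, 5.85 and 6.95 under CR and 5.81 to 6.61 on control diet, so only CR replicates 1 and 4 lay above control. Bhlhe40, a repressor that competes at E-boxes, differed by -0.08, and the kinases Csnk1d and Csnk1e, which phosphorylate the Per proteins, by 0.03 and 0.11. The adjusted p was 1 for each of Nr1d2, Per1, Per2, Cry1, Cry2, Bhlhe40, Csnk1d and Csnk1e.

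Among the activators, Arntl had levels of 8.48, 8.48, 7.48 and 8.94 under CR and 8.40, 7.89, 5.72 and 5.97 on control diet. The control mice were split, with replicates 1 and 2 within the CR range and replicates 3 and 4 below it by more than 1 log2 unit. Arntl differed by 1.35 (SE 0.46, adjusted p = 0.524), so the difference was the second largest of the clock genes and did not pass. Npas2, which can stand in for Clock, differed by 0.24 (SE 0.16), Arntl2 by -0.15 (SE 0.16), Rora by 0.05 (SE 0.15) and Clock itself by -0.04 (SE 0.21). Clock had levels of 6.92, 5.90, 5.88 and 6.79 under CR and 6.31 to 6.58 on control diet. Its CR replicates 2 and 3 lay below every control array and replicates 1 and 4 above. Npas2 had levels of 7.43, 8.04, 7.88 and 7.28 under CR and 7.29 to 7.52 on control diet. Both differences changed sign without CR replicates 2 and 3 together. Of the remaining output factors, Tef stood at 9.20 to 9.41 under CR and at 9.43 to 9.74 on control diet without overlap (difference -0.20, SE 0.15). Hlf differed by -0.19 (SE 0.19) and Nfil3, a repressor at D-boxes, by 0.23 (SE 0.30). In all, 5 of the 19 genes did not overlap between the diets, and all 5 were lower (Dbp, Ciart, Per3, Nr1d2 and Tef). Over all genes tested 2.59% did not overlap, 1.79% with CR lower and 0.8% with CR higher.

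**Figure D2:**
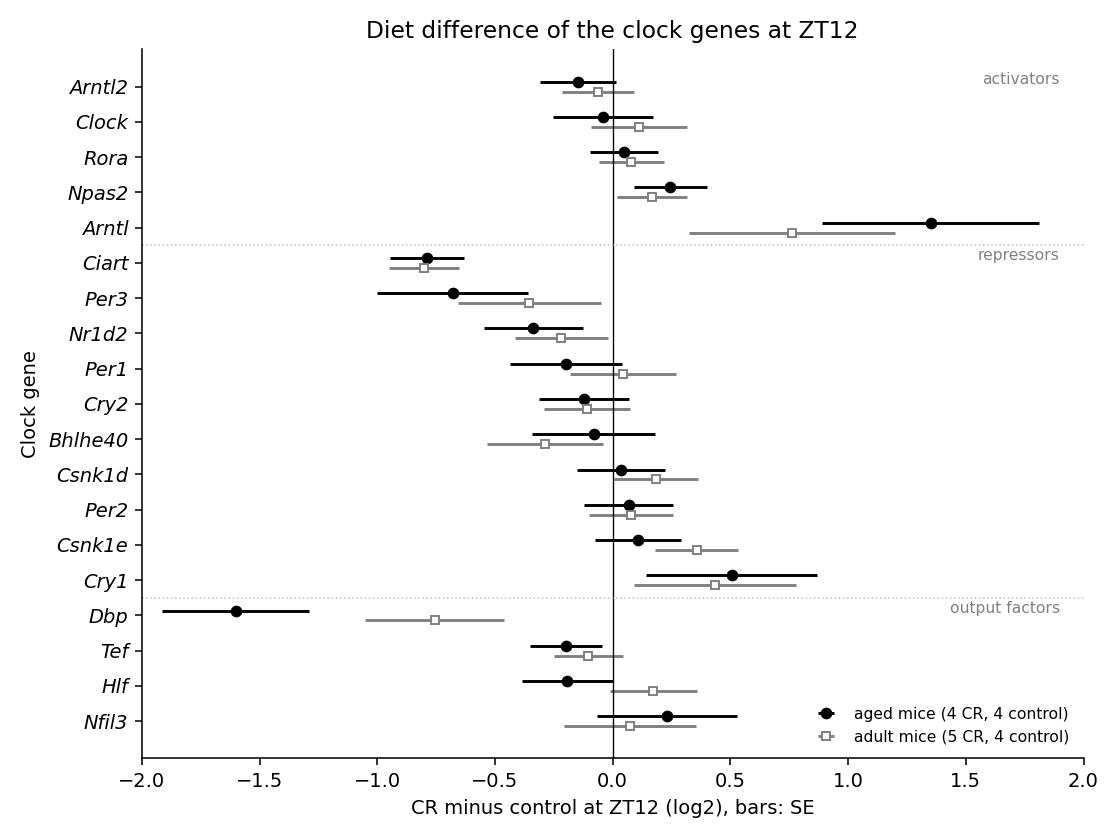
The plot gives the CR minus control difference (log2, x axis; bars are SE) at ZT12 of the 19 tested clock genes (y axis), in aged mice as black circles and in adult mice as open squares. Dbp (-1.60) and Ciart (-0.79) are the aged differences past the threshold, and the Arntl difference (1.35) has the widest error.

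Over the day, the aged control mice held Dbp at 8.41 ± 0.36 (SD, n = 3) at ZT8 and 8.77 ± 0.23 (n = 4) at ZT12. The aged CR mice went from 8.35 ± 0.41 (n = 4) to 7.17 ± 0.38 (n = 4) between the same times. The diet difference of Dbp was 1.57 at ZT4, -0.06 at ZT8, -1.60 at ZT12 and -1.33 at ZT16. Ciart showed the like course: CR mice fell from 7.58 ± 0.35 at ZT8 to 6.83 ± 0.06 at ZT12, and control mice stood at 7.25 ± 0.12 and 7.62 ± 0.23. Per3 was above control at ZT8 (9.23 ± 0.34 against 8.44 ± 0.49) and below it at ZT12 (8.38 ± 0.32 against 9.06 ± 0.21) and ZT16 (6.81 ± 0.25 against 8.41 ± 0.35). Antxr2 was lowest of all 6 times at ZT12 under CR (7.58 ± 0.19), where the control mean (8.75 ± 0.11) was among its highest. Cd59a of control mice reached its highest mean at ZT16 (10.39 ± 0.24), and the CR mean at ZT12 was 10.14 ± 0.12.

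**Figure D3:**
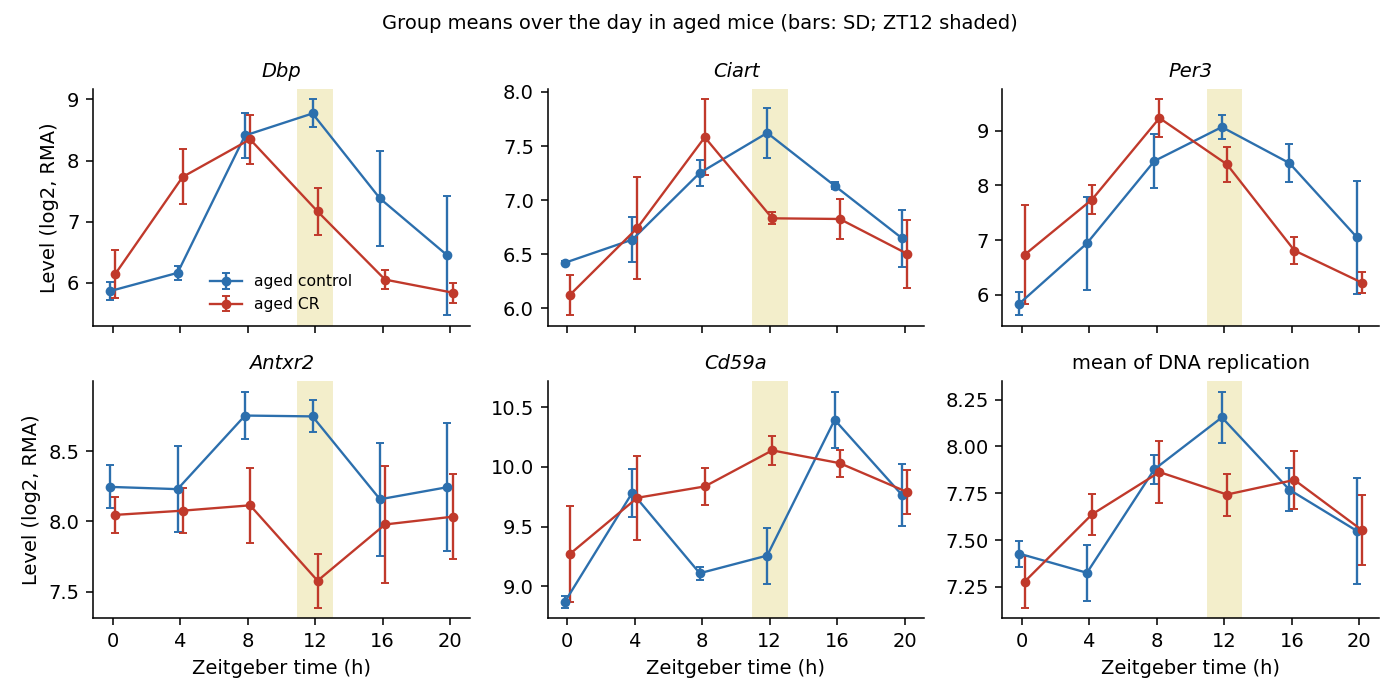
Group means (log2, y axis; bars are SD) are plotted against zeitgeber time (h, x axis) in aged mice, control in blue and CR in red, with ZT12 shaded. At ZT12 the CR means of Dbp, Ciart, Per3, Antxr2 and the DNA replication list lie below control and that of Cd59a lies above.

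The difference at ZT12 was also tested against the mean of the 5 other times in aged mice. Across all genes 0 (0.0%) passed in limma, and 494 (3.69%) had an unadjusted p of under 0.05. The smallest p values were those of Dbp and of the checkpoint kinase gene Chek1, by -1.57 (SE 0.34) and -1.02 (SE 0.22), both at adjusted p = 0.0944. Smpdl3b (-0.60), Slfn9 (-0.93), Ciart (-0.73) and Man1c1 (-0.78) followed, each at adjusted p = 0.12. With the mean of all probe sets of a gene, with each array's median subtracted, or without CR replicate 1, 1 gene passed, Chek1 in each case.

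Genes of DNA replication gave no call, and their levels at ZT12 lay lower under CR as a list. Of 42 listed genes 41 were matched and 39 tested. None of the 39 passed the adjusted threshold, 21 were lower at an unadjusted p of 0.05 and 0 were higher, beside 2.94% and 1.58% of all genes. The differences were below 0 in 37 of 39, beside 55.8% of all genes, with Orc1 (0.15) and Ccne1 (0.08) as the exceptions. The list median was -0.36 and that of all genes -0.02. The 39 genes were measured on the same 8 arrays and are not separate observations, and the list was chosen with earlier results of these data known. In 16 of the 39 the groups did not overlap, all with CR lower, beside 1.79% of all genes. Over the 41 matched genes the mean level per array was 7.82, 7.58, 7.79 and 7.78 under CR and 8.00, 8.21, 8.32 and 8.10 on control diet, and the lowest control array lay above the highest CR array.

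The count rested in part on single arrays. It was 12 without CR replicate 2 and 12 without control replicate 3, and ranged from 14 to 22 on removal of each other array. Without CR replicates 2 and 3 together it was 9. Array weights gave 17 and sex as a covariate gave 22. The share of all genes lower at that level was 2.0% without CR replicate 2, 1.88% without control replicate 3, 4.36% without CR replicates 2 and 3 together, 3.74% with array weights and 2.92% with sex as a covariate. The list median without CR replicates 2 and 3 together was -0.32 and 39 of 39 genes were below 0, beside a median of -0.03 over all genes.

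The Mcm genes encode the helicase that unwinds DNA at the fork. Mcm4 had levels of 8.01, 7.35, 7.74 and 7.96 under CR and 8.47, 8.88, 8.79 and 8.44 on control diet, with no overlap. It differed by -0.88 (SE 0.22, adjusted p = 0.079), and passed with each array's median subtracted (adjusted p = 0.0282) or with quantile normalization run again (0.0401). Mcm2 had levels of 8.64, 7.85, 8.16 and 8.53 against 9.28, 9.13, 9.21 and 9.30, a difference of -0.94 (SE 0.29). Its control arrays lay within 0.2 log2 units of one another, and every CR array was lower by more than that spread. Mcm5 (-0.65), Mcm3 (-0.61), Mcm6 (-0.60) and the loading factor Mcm10 (-0.35) also did not overlap, and Mcm7 (-0.33) did.

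The GINS complex joins the helicase to the polymerase. Gins1 had levels of 7.59, 6.99, 7.36 and 7.44 under CR and 7.88, 8.33, 8.61 and 8.25 on control diet, a difference of -0.92 (SE 0.26, adjusted p = 0.256). Gins2 differed by -0.66 (SE 0.20) without overlap, Gins4 by -0.22 and Gins3 by -0.07 with overlap. Of the genes that start and copy strands, Prim1, the primase, differed by -0.42 (SE 0.17) and the polymerase subunits Pole2 by -0.63, Pola1 by -0.54 and Pole by -0.47. The single-strand binding proteins Rpa1 and Rpa2 differed by -0.43 and -0.65. Pcna, the sliding clamp, stood at 10.82 to 10.94 under CR and 10.91 to 11.21 on control diet, a difference of -0.14 (SE 0.15) with overlap.

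Among genes that act on newly copied DNA, Ung had the widest difference of the list. Ung, which removes uracil from DNA, had levels of 8.41, 7.56, 7.78 and 8.22 under CR and 8.91, 9.15, 8.95 and 9.21 on control diet. Its difference was -1.06 (SE 0.38, adjusted p = 0.619) without overlap. Uhrf1, which carries DNA methylation through replication, stood at 7.80 to 8.18 under CR and 8.65 to 8.81 on control diet (difference -0.74, SE 0.26, adjusted p = 0.574). Lig1, the ligase of the lagging strand, differed by -0.46 (SE 0.24).

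Timeless, which in mammals travels with the fork and steadies it, was in none of the lists. Its levels were 6.19, 5.82, 5.71 and 6.47 under CR and 7.04, 7.22, 6.96 and 6.76 on control diet, with no overlap. It fell by 0.95 (SE 0.21, adjusted p = 0.0344), and its other probe set differed by -0.88. The call was lost without CR replicates 1, 2 or 3 (adjusted p 0.0596, 0.157 and 0.172) and without control replicates 1, 2 or 3 (0.0683, 0.180 and 0.0958). Timeless differed by -0.67 (adjusted p = 0.525) without CR replicates 2 and 3 together, and by -0.77 (adjusted p = 0.137) with array weights. Chek1, the kinase that halts the cycle when forks stall, came next after the 11 genes. It had levels of 6.36, 5.40, 5.69 and 5.97 against 6.67, 6.61, 6.84 and 6.72, a difference of -0.86 (SE 0.20, adjusted p = 0.0614) without overlap. It passed without CR replicate 1 (adjusted p = 0.0305), with array medians subtracted (0.0215) and with sex as a covariate (0.0352). It also passed with the filter at the 50th percentile (0.0483). With the mean of its probe sets the difference was smaller, -0.53, and passed (adjusted p = 0.00543). It missed the threshold in the other settings. The DNA damage list that holds Chek1 had a median of -0.04 over 24 tested genes.

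Genes of mitosis gave no call, and most of their differences lay above 0. Of 34 listed genes 32 were tested, 0 passed, 0 had an unadjusted p of 0.05 or less, and 22 were above 0 (44.1% of all genes) with a median of 0.05. Ttk, a spindle checkpoint kinase, was the lowest at -0.39 (SE 0.24), and Anln, a scaffold of cytokinesis, the highest at 0.37 (SE 0.28). Ube2c and Cdc20, which act in the exit from mitosis, differed by 0.28 and 0.22, both with overlap. The mean of the list was 7.08 to 7.32 under CR and 7.0 to 7.37 on control diet. Whether the replication and mitosis lists differ from each other was not tested.

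**Figure D4:**
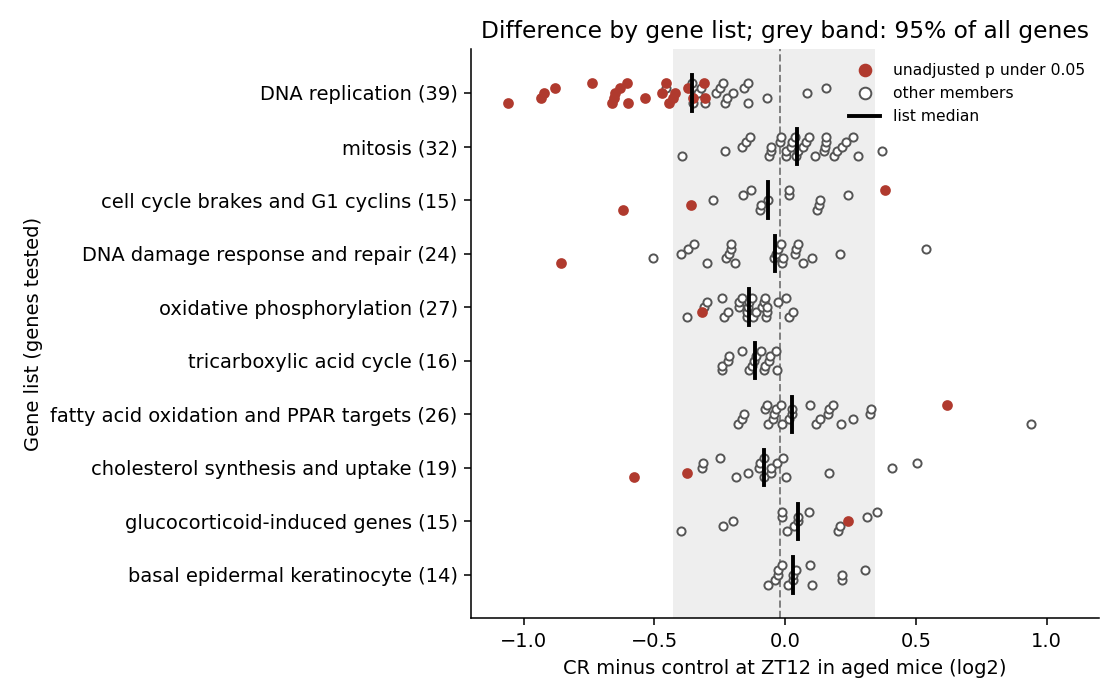
Each point is the CR minus control difference (log2, x axis) of 1 tested gene at ZT12 in aged mice, by gene list (y axis), filled where the unadjusted p was under 0.05; black bars are list medians, the dashed line is the median of all genes and the grey band holds 95% of all genes. The DNA replication points lie left of 0 in 37 of 39 genes with a median of -0.36, and the mitosis points spread around a median of 0.05.

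Over the day the replication median of the aged diet difference was -0.16 at ZT0, 0.29 at ZT4, -0.03 at ZT8, -0.36 at ZT12, 0.08 at ZT16 and 0.01 at ZT20. The mean level of the list in control mice was 7.88 ± 0.08 (SD, n = 3) at ZT8 and 8.16 ± 0.14 (n = 4) at ZT12, its highest. In CR mice it was 7.86 ± 0.16 (n = 4) at ZT8 and 7.74 ± 0.11 (n = 4) at ZT12. In the test of ZT12 against the 5 other times, 22 of the 39 members lay below 0 at an unadjusted p of 0.05, beside 2.52% of all genes. None of the 39 passed the adjusted threshold. That test contains the ZT12 difference itself, so its count is not separate from the count of the list at ZT12.

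Markers of other cells were set beside these lists. The fibroblast list had mean levels of 5.35 to 5.75 over the 4 CR arrays and 5.65 to 5.71 over the control arrays, and the immune list 5.46 to 5.81 and 5.75 to 5.86. The endothelial list had 4.80 to 5.19 and 4.96 to 5.09, and the basal keratinocyte list 11.17 to 11.28 and 11.06 to 11.28. Under CR the fibroblast, endothelial, muscle and fat lists were lowest on replicates 1 and 4 and higher on replicates 2 and 3. The replication list was lowest on replicate 2. Of the 14 fibroblast genes matched, Col6a1, a chain of collagen VI, had levels of 6.53, 5.78, 6.65 and 6.11 under CR and 7.55, 8.07, 7.80 and 7.43 on control diet. It differed by -1.45 (SE 0.36, adjusted p = 0.0738), the widest of the list, and Sparc differed by -0.59 without overlap. The other 8 tested fibroblast genes lay between -0.10 (Col3a1) and 0.10 (Col1a1), 4 of the 10 tested were above 0, and the list median was -0.06. The part of these cells or of the array distributions in the differences was not tested.

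In adult mice at the same time, 5 genes (0.0374%) passed: Cd59a (0.94), Ciart (-0.80), Stard13 (1.00), Prxl2a (0.71) and Amotl2 (0.78). Cd59a, Ciart and Stard13 were thus among the 11 of the aged mice. The comparisons take their means from different arrays. They share the same estimate of each gene's spread, from the fit to the whole series, so their p-values are not independent. All 11 genes had the same sign in adult mice, beside 56.2% of all genes, and 8 of the 11 had an unadjusted p under 0.05 there, beside 2.56%. The adult difference of Dbp was -0.76 (SE 0.29), of Antxr2 -0.70 (SE 0.18), of Steap4 -0.83 (SE 0.23) and of Timeless -0.32 (SE 0.20). For Prxl2a the aged difference was 0.48 (adjusted p = 0.483) and for Amotl2 0.60 (adjusted p = 0.310). In the replication list 34 of 39 were below 0 in adult mice, beside 45.1% of all genes, with a median of -0.15 and 1 gene lower at an unadjusted p of 0.05, beside 0.822% of all genes.

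The test of the aged against the adult difference found 0 genes (0.0%) past the threshold in limma and 101 (0.755%) at an unadjusted p under 0.05. The 6 with the smallest p all had an adjusted p of 1. Rcan3, a regulator of calcineurin, differed by -0.75 in aged and 0.16 in adult mice. Slc2a6, a hexose transporter, differed by 0.24 and -0.21, and Pnpla6, a lysophospholipase, by 0.37 and -0.17. Tefm, the elongation factor of mitochondrial transcription, differed by -0.42 and 0.19, Cyp27b1, which makes active vitamin D, by -0.36 and 0.05, and Ankrd6 by -0.46 and -0.02. In 8 of the 11 genes the aged difference was the larger. These genes were chosen by their aged difference, so the count cannot show a difference between the ages. For Dbp the test of the difference between the ages gave -0.85 at an adjusted p of 1.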

How the data were processed

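Cells were measured on Affymetrix mouse PM arrays. The deposited values are log2 levels made by the authors with RMA (background correction, quantile normalization and probe set summary), as the submitters' processing notes name it without a version. The labels' protocols give 25 ng RNA and 17 cycles of cDNA amplification. Of 45140 probe sets, those with 1 gene symbol were kept, the brightest stood for a gene (17097), and genes under the 30th percentile of probe set means were dropped (13383 tested). limma 3.58.1 in R 4.3.3 was fitted to the whole series with 24 group means of age, diet and time, and p-values were adjusted by Benjamini-Hochberg over all genes. The script was tested on simulated data.

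The number of arrays limits the precision, and p-values measure the spread between the arrays deposited. The members and the 42 gene lists (759 genes, 672 matched, 608 tested) were chosen with earlier results of these data known. The rule for named genes took up to 12 rises and 12 falls past the threshold, every tested clock gene, up to 4 called members of each list, and, for each test of a difference between contrasts, the 8 smallest p past the threshold or else the 6 smallest. Unnamed gene models were left out, and sex-linked transcripts served only as a check. Other genes named, and the 5 named from the adult comparison, were chosen after their values were seen. Alternatives covered the arrays in the fit, a replicate block, filters, probe set choice, normalization, array weights, variance model, sex, fold and single arrays.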

Additional observations from a re-analysis of the deposited data

Results flagged for a closer look

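In 4 of 178 groups of 4 arrays checked, over 89 named genes, 1 array stood far from the other 3. A limit of this kind flags about 1 in 20 such groups by chance. Slc2a6 had a high value on control replicate 2 (5.71, against 5.50 to 5.53 on the other control arrays). Pnpla6 had a high value on CR replicate 2 (9.11, against 8.72 to 8.75). Sparc had a low value on CR replicate 2 (9.30, against 9.75 to 9.80). Nsdhl, of cholesterol synthesis, had a high value on control replicate 3 (8.38, against 7.98 to 8.00). None of the 4 genes passed the test of the diet difference.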

How the results depend on the processing

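The 11 genes past the threshold became 3 with the spread from the 8 arrays alone, 7 with no filter on dim genes and 20 with sex as a covariate. Apart from the removal of arrays, settings that kept the count within 1.5 times gave 10 to 15. Of the 11, array weights kept 7 among 15, and the mean of all probe sets and repeated quantile normalization each kept 8 among 10. Leaving out each array gave 2 to 9, and without CR replicates 2 and 3 together, chosen after seeing the data, it was 2. Clock genes past the threshold numbered 1 with the 8 arrays alone, with array medians subtracted and with quantile normalization repeated, 0 without CR replicates 2 and 3, and 1 to 2 on leaving out each array. The replication genes lower at an unadjusted p of 0.05 numbered 9 without CR replicates 2 and 3 and 12 to 22 on leaving out each array. With medians subtracted or quantiles repeated 1 replication gene passed. The test against the other times gave 1 with the mean of all probe sets or with medians subtracted, and 0 to 1 on leaving out each array. The test between the ages gave 0 under every alternative run.

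The labels give the replicate numbers 1 to 4 in both diets, and the design states that mice were killed by day, without tying an array to a day. Deviations of same-numbered arrays correlated at -0.182 to 0.271, and those of other pairs at -0.277 to 0.234, so the numbers were not taken as pairs. A replicate block kept 11 genes, the same 11; with the 8 arrays alone and a replicate block the count was 0, and 0 for the clock genes.

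Some differences changed sign between settings, among them Npas2 (0.24) and Per1 (-0.20), which were not near 0. With array weights Clock was 0.19, Bhlhe40 0.013 and Ccne1 -0.12. With the mean of all probe sets Rora was -0.02 and Per2 -0.035. Without CR replicates 2 and 3, Clock was 0.44, Npas2 -0.059, Per1 0.015, Cry2 0.085, Orc1 -0.085 and Ccne1 -0.12. On leaving out single arrays the ranges were -0.22 to 0.12 for Clock, -0.0041 to 0.11 for Rora, -0.037 to 0.18 for Per2, -0.23 to 0.11 for Bhlhe40, -0.088 to 0.17 for Csnk1d, -0.023 to 0.19 for Ccne1 and -0.0021 to 0.39 for Tsc22d3. The cause of these changes was not tested.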

Other observations

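In all, 13 genes lay between adjusted p of 0.05 and 0.08, among them Chek1, Mcm4, Sphk2, Col6a1, Slfn9 and Ankrd6, which are named above. The others were chosen after their values were seen. Spock2, a proteoglycan of the extracellular matrix, had levels of 8.31, 7.46, 7.83 and 7.80 under CR and 5.91, 7.24, 6.11 and 6.26 on control diet, a difference of 1.47 (SE 0.36, adjusted p = 0.0738). Its groups did not overlap, and control replicate 2 lay nearest to CR. Adgre5 (Cd97), an adhesion receptor, differed by 0.68, the kinase gene Tec by 0.73, Esyt3, a lipid transfer protein at membrane contacts, by 0.67 and Slx4ip by 0.51. Wnt10b, a Wnt ligand, had levels of 5.49, 5.94, 5.71 and 5.67 under CR and 6.52, 6.80, 6.55 and 6.35 on control diet, a difference of -0.85. Parm1 differed by -1.13. Each had an adjusted p of 0.0738, and their groups did not overlap. Among the Wnt list, 2 of 14 tested genes were lower at an unadjusted p of 0.05, Wnt10b and the antagonist Sfrp1 (-0.56), beside 2.94% of all genes, and the list median was 0.03.

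Genes of energy metabolism gave no call. In glycolysis 8 of 16 tested genes were below 0, with a median of 0.04. In oxidative phosphorylation 24 of 27 genes were below 0 (median -0.14, 1 lower at an unadjusted p of 0.05, beside 2.94% of all genes), and in the tricarboxylic acid cycle 16 of 16 were (median -0.12, 0 at that level), beside 55.8% of all genes. Their array means overlapped, at 9.85 to 10.21 under CR and 10.06 to 10.43 on control diet for the first, and 9.26 to 9.48 and 9.41 to 9.67 for the second. In adult mice the counts below 0 were 18 of 27 and 7 of 16. In cholesterol synthesis 15 of 19 genes were below 0, with Sc5d at -0.58 and Nsdhl at -0.38. In fatty acid oxidation and PPAR targets 15 of 26 were above 0 with a median of 0.03, and Acot1 (0.62) and Angptl4 (0.94, CR levels 5.96 to 8.00) were the widest. The glucocorticoid-induced list had a median of 0.05, with Fkbp5 at 0.35 and Tsc22d3 at 0.20 with overlap. In the interferon list 10 of 13 genes were above 0, beside 44.1% of all genes, with a median of 0.13. None passed, and 2 were higher at an unadjusted p of 0.05 in limma, beside 1.58% of all genes. Usp18, which removes Isg15 from proteins, was the widest of the list. It had levels of 8.52, 8.43, 9.0 and 8.76 under CR and 6.89, 7.75, 7.93 and 7.59 on control diet. Its difference of 1.14 (SE 0.35) had an adjusted p of 0.354 without overlap.

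Of the remaining genes of growth control, Rbl1, a pocket protein that holds E2F in check, differed by -0.62 without overlap, and Cdkn1a, which brakes cyclin-dependent kinases, by 0.24 with overlap. Lgr6, a marker of stem cells in the skin, stood at 7.73 to 8.02 under CR and 8.44 to 8.86 on control diet, a difference of -0.71 (SE 0.27, adjusted p = 0.763). It was the lowest of its list of hair follicle stem cell genes, in which 7 of 13 tested genes were above 0, up to Sox9 at 0.63, with a median of 0.03. Egr3, an immediate early gene, differed by 0.52 and Trp53inp2, which acts in autophagy, by -0.60, both without overlap. Thy1 differed by -0.85 with overlap.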
